A study of Homo sapiens with 6 samples.

Results

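Keratins were followed here as 9 genes in MDA-MB-231, a human triple-negative breast cancer line of mesenchymal appearance. They were chosen by a list of names, from the 17064 genes of the expression table, with one reading of the data in view, namely that KRT81 differed between the vector control libraries. The members are the type I keratins KRT14, KRT18 and KRT19 and the type II keratins KRT5, KRT7, KRT8, KRT80, KRT81 and KRT86. A row was found for 8 of the 9. KRT5 had none and has no value here.

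Keratins are the intermediate filament proteins of epithelial cells. A filament is built from a type I and a type II chain in equal amounts, and chains without a partner are degraded. KRT8 and KRT18 form the filament of simple epithelia, KRT7 and KRT19 are added in ducts and glands, KRT5 and KRT14 form the filament of basal and myoepithelial cells, and KRT81 and KRT86 belong to the hair shaft. In the mammary gland KRT8, KRT18 and KRT19 mark luminal cells. Mesenchymal cells use vimentin instead.

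MRCKα and MRCKβ are kinases downstream of CDC42 that act on actomyosin. RNA of 6 libraries was sequenced, 2 of cells with the empty lentiviral vector (Vector control, from separate transductions), 1 of MRCKα KO (CDC42BPA Knockout), 1 of MRCKβ KO (CDC42BPB Knockout) and 2 of DKO (CDC42BPA/CDC42BPB Double Knockout, made with different guides). All cells, controls included, were transduced with a lentivirus and selected with an antibiotic, and no clones were picked, so that each line is a mixed population. The labels do not tell which guide belongs to which DKO library.

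Between 10349898 and 10657857 expected counts were obtained per library, which are estimated reads that need not be whole. CDC42BPA had an FPKM (reads per length of transcript and library size) of 29.4 in MRCKα KO against 36.4 and 23.3 in vector 1 and vector 2, and CDC42BPB one of 25.7 in MRCKβ KO against 30.3 and 29.1. In DKO 1 and DKO 2 they had 28.3 and 26.1, and 23.4 and 23.5. CDC42BPB was thus below both vector libraries in MRCKβ KO, DKO 1 and DKO 2. CDC42BPA lay between the vector libraries in MRCKα KO, DKO 1 and DKO 2. RNA of both targeted genes was still present in their knockout libraries and does not check the labels. By immunoblot, the paper reported very efficient loss of both proteins in its MDA-MB-231 knockout cells.

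The label calls the cells epithelial, and the markers were mixed. Of 10 epithelial markers 8 had a row and 4 a mean FPKM of at least 1. CDH1, which encodes E-cadherin, lay between 0.25 and 0.64, and EPCAM, an epithelial adhesion molecule, between 0.73 and 2.62. Of 10 mesenchymal markers 9 had a row and 7 a mean FPKM of at least 1, led by VIM with 1532 to 2052, the receptor kinase gene AXL with 237 to 367 and the hyaluronan receptor gene CD44 with 111 to 203. RAB25, GRHL2 and TWIST1 had no row. Vimentin FPKM was between 2.64 and 5.08 times the summed FPKM of the keratin members.

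KRT8 and KRT18 dominated the keratins of every library. Values of a pair are given here with library 1 before library 2. KRT8 had an FPKM of 220.1 and 187.0 in the vector libraries, 171.5 in the MRCKα KO, 204.8 in the MRCKβ KO, and 186.7 and 137.6 in the DKO libraries. KRT18, its type I partner, had 177.3, 184.4, 168.5, 189.0, 167.1 and 153.0 in the same order. Their ranges overlapped, and together they made up 64.6% to 80.3% of the members' summed FPKM.

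The ductal and simple keratins followed at a lower level. KRT7 had an FPKM of 52.4 and 34.5 in the vector libraries, 61.1 in the MRCKα KO, 55.1 in the MRCKβ KO, and 57.4 and 25 in the DKO libraries. KRT19, the smallest type I keratin, had 60.4, 28.9, 62.2, 57.5, 48.1 and 21.5. In both genes vector 2 and DKO 2 were the lowest of the 6 libraries, and the remaining 4 lay close to each other. KRT80, a type II keratin of epithelial cells, had 25.7, 10.5, 17.6, 20.5, 18.3 and 9.20, with the same libraries lowest.

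The hair keratin KRT81 had an FPKM in the range of the ductal keratins. Its FPKM was 47.1 and 15.9 in the vector libraries, 43.1 in the MRCKα KO, 42.3 in the MRCKβ KO, and 41.0 and 22.3 in the DKO libraries. Again vector 2 and DKO 2 were the lowest, here with vector 2 below DKO 2. KRT86, the other hair keratin, was far lower with 2.91, 1.35, 2.49, 2.69, 3.13 and 2.19 FPKM, on 33 to 82 reads. KRT81 exceeded KRT86 between 10.2-fold and 17.3-fold in FPKM.

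KRT14, the basal type I keratin, had few reads, with an FPKM between 0.18 and 0.64 on 3 to 11 expected counts. Ordered by mean FPKM over the 6 libraries, KRT8 (184.6), KRT18 (173.2), KRT7 (47.6), KRT19 (46.4), KRT81 (35.3), KRT80 (16.9), KRT86 (2.46) and KRT14 (0.335) followed each other. KRT8 and KRT18 overlapped in range, as did KRT7, KRT19, KRT81 and KRT80 with their neighbours. No overlap was found between KRT18 and KRT7, KRT80 and KRT86, or KRT86 and KRT14.

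**Figure D1:**
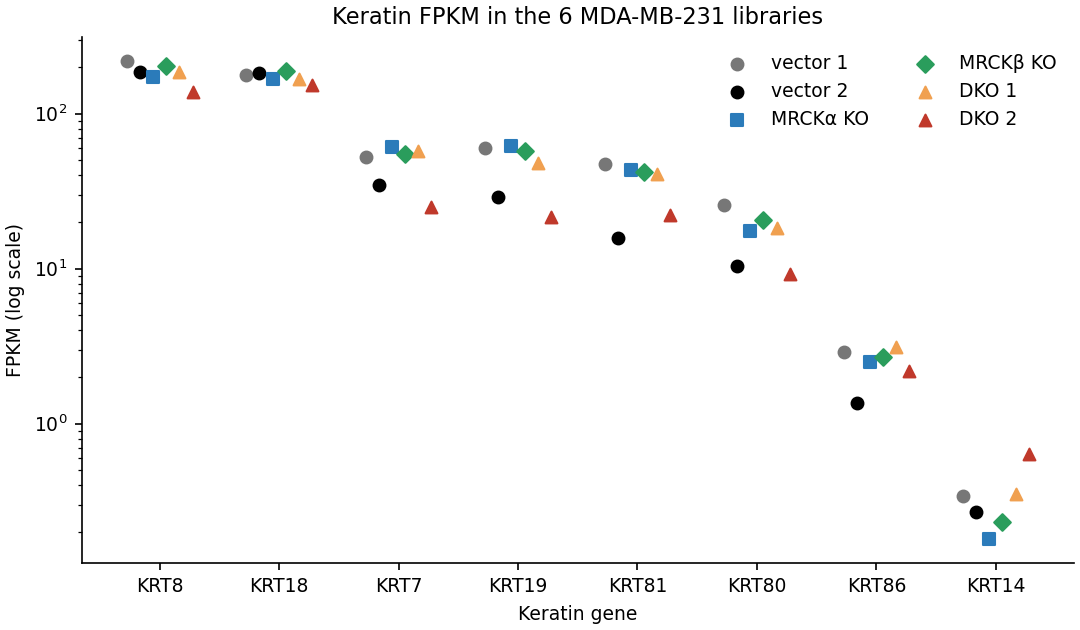
FPKM (log scale) of the 8 keratin members with a row, 1 point for each of the 6 libraries. KRT8 and KRT18 lie above 130 in all libraries, and for KRT7, KRT19, KRT80 and KRT81 the points of vector 2 and DKO 2 lie below the other 4.

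The values of KRT81 and KRT86 depend on how shared reads were divided, so their coding sequences were compared. Of 1454 aligned coding bases in the annotated transcripts, 1369 (94.2%) were identical. The longest run without a difference was 605 bases, in which no 50-base read can be assigned to either gene. Of the 1880 windows of 50 bases in the KRT81 transcript, 721 (38.4%) occurred unchanged in KRT86, and 44.6% in any other keratin transcript. For KRT86 721 of 2042 windows (35.3%) occurred in KRT81. The expected counts of both genes were not whole in any of the 6 libraries. The length used for KRT86 also varied, between 2286 and 2637 bases, while that of KRT81 was 1926 in all libraries. KRT86 values are therefore uncertain. KRT8 and KRT18 share 36.9% and 31.8% of their windows with their numbered pseudogenes, KRT14 shares 23.8% with other keratins or their pseudogenes, and KRT7, KRT19 and KRT80 share at most 1.79%. Whether the authors' transcript set held the pseudogenes is not given in the sources used here.

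By position, KRT80, KRT7, KRT86 and KRT81 are neighbours within 140.2 kb of chromosome 12. In GRCh38 KRT80 spans 52168996 to 52192000 on the minus strand, KRT7 52232520 to 52252186 on the plus strand, KRT86 52249300 to 52309163 on the plus strand and KRT81 52285913 to 52291534 on the minus strand. KRT81 thus lies inside KRT86 on the opposite strand, without overlap of exons, and KRT7 and KRT86 overlap by 2.89 kb at their ends. KRT8 (52897187 to 52949954, minus strand) and KRT18 (52948871 to 52952901, plus strand) overlap by 1.08 kb and lie 588.0 kb further along the same chromosome, where KRT18 is the type I gene among type II genes. KRT5 lies between these groups, from 52514575 to 52520687. KRT19 (41523617 to 41528308) and KRT14 (41582279 to 41586921) are on the minus strand of chromosome 17.

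Between the vector control libraries, 6 of the 7 members at a mean FPKM of 1 or more were lower in vector 2, and 4 were lower by at least 2-fold. Over all genes of that level, 50.8% were lower in vector 2 and 2.52% by at least 2-fold. No member was higher by at least 2-fold, against 1.62%. Since this contrast led to the choice of KRT81, these counts are a description and nothing is read from them. KRT81 was 2.96-fold lower in vector 2, a log2 ratio of FPKM of -1.57. On counts the ratio was -1.56, and counting error alone gave it an exact 95% interval of -1.75 to -1.38. KRT80 was 2.45-fold lower, KRT86 2.16-fold and KRT19 2.09-fold. The next below 2-fold was KRT7 with 1.52-fold, while KRT8 was 1.18-fold lower and KRT18 1.04-fold higher in vector 2.

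Between the DKO libraries, 7 of these 7 members were lower in DKO 2 than in DKO 1, against 47.5% of all genes of that level, and 2 were lower by at least 2-fold, against 1.63%. No member was higher by that much, against 0.684%. The members were chosen with values of all 6 libraries known, so these counts are a description as well. KRT7 was 2.30-fold lower in DKO 2 (log2 ratio of counts -1.18, exact 95% interval -1.34 to -1.02) and KRT19 2.24-fold (-1.16, interval -1.35 to -0.97). KRT80 was 1.99-fold lower (-0.99, interval -1.17 to -0.80) and KRT81 1.84-fold (-0.88, interval -1.05 to -0.72). KRT8 was 1.36-fold and KRT18 1.09-fold lower, and the interval of KRT86 (-1.04 to 0.02) included no difference. With 1 library on each side there is no test, and these intervals hold only counting error.

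KRT7, KRT19, KRT80 and KRT81 were at least 1.5-fold lower both in vector 2 than in vector 1 and in DKO 2 than in DKO 1. This limit was set after their values were seen. Of the 11692 genes that reached a mean FPKM of 1 and were above 0 in these 4 libraries, 2.44% were. The summed FPKM of the 4 genes was 185.5 and 89.7 in the vector pair, 164.8 and 77.9 in the DKO pair, and 183.9 and 175.4 in the MRCKα and MRCKβ knockouts. Fewer cells with these keratins and less of their RNA per cell cannot be told apart in bulk RNA.

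**Figure D2:**
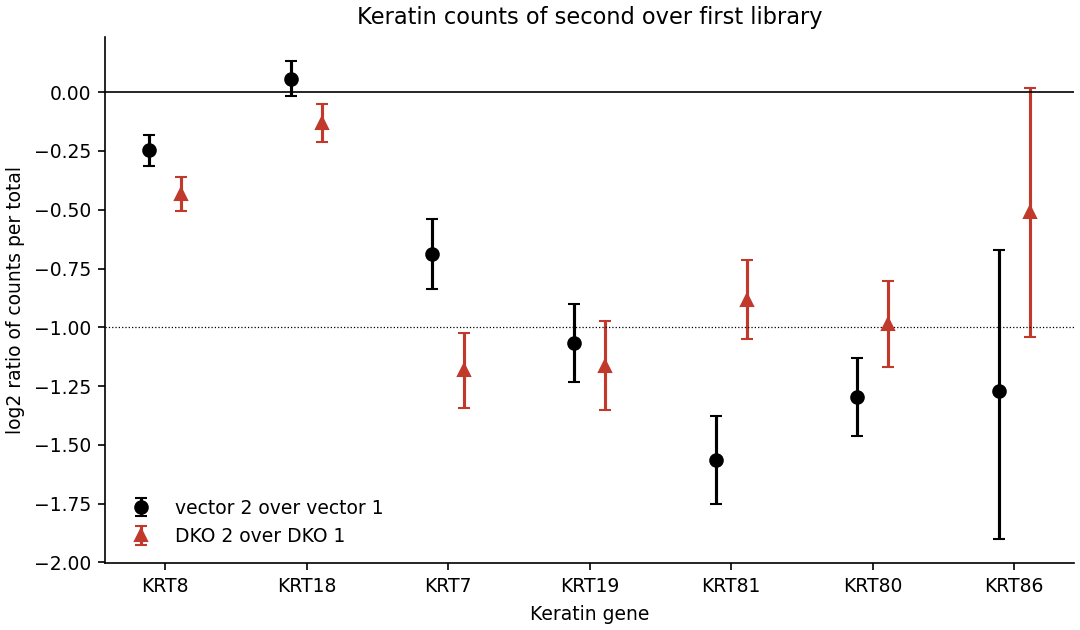
log2 ratio of counts per library total for 7 keratins, vector 2 over vector 1 (circles) and DKO 2 over DKO 1 (triangles), with exact 95% intervals that cover counting error only and a dotted line at 2-fold lower. KRT7, KRT19, KRT81 and KRT80 lie at -0.69 or below in both contrasts, whereas KRT18 lies at 0.06 and -0.13.

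The more abundant epithelial markers were lower in the same libraries, the scarce ones were not uniformly so. The summed FPKM of the epithelial list was 21.9 in vector 1, 12.9 in vector 2, 24.2 in DKO 1 and 11.6 in DKO 2, while the MRCKα and MRCKβ knockouts had 19.5 and 27.2. The list had 4 members at a mean FPKM of 1 or more. Of these, 4 were lower in vector 2 than in vector 1 and 4 in DKO 2 than in DKO 1. Over all genes of that level, 50.8% and 47.5% were lower. The median log2 ratios of the 4 markers were -1.01 and -0.85. The claudin gene CLDN4 had an FPKM of 11.4 and 6.57 in the vector pair against 13.9 and 4.36 in the DKO pair. CLDN7 had 5.66 and 2.40, and 5.60 and 3.02. EPCAM hardly differed, at 1.06-fold lower in vector 2 and 1.19-fold in DKO 2. The same medians over all genes of that level were -0.01 and 0.01. Among the 4 markers below that level, CDH1 had the other direction in the vector pair, where its FPKM was 0.25 and 0.64 (log2 ratio of counts 1.39, exact 95% interval 0.42 to 2.44), and 0.47 and 0.43 in the DKO pair. CLDN3, with 2 counts in DKO 1 and 7 in DKO 2, had a log2 ratio of counts of 1.801 (interval -0.59 to 5.10), and ESRP1, with 1 and 9, one of 3.16 (interval 0.31 to 8.62). In the vector pair CLDN3 had 0 and 4 counts, but ESRP1 had 4 and 1. CRB3 had 4 and 2 counts in the vector pair and 0 and 1 in the DKO pair. The scarce markers thus went both ways, on few counts.

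Of 7 mesenchymal markers at that level 2 were lower in vector 2 and 1 in DKO 2, against 50.8% and 47.5% of all genes, and the median log2 ratios were 0.38 and 0.13. VIM had an FPKM of 1545 in vector 1, 2052 in vector 2, 1543 in DKO 1 and 1887 in DKO 2. FN1, the fibronectin gene, had 38.1 in vector 1 and 20.1 in vector 2, but 32.8 in DKO 1 and 45.7 in DKO 2. The list summed to 2046 and 2734 in the vector libraries, 2043 and 2478 in the DKO libraries and 2014 and 2135 in the MRCKα and MRCKβ knockouts.

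Fibroblast markers summed to 11.2 and 3.79 FPKM in the vector libraries, 6.21 and 4.0 in the DKO libraries, and 4.67 and 7.29 in the MRCKα and MRCKβ knockouts. All 8 had a row and 2 a mean FPKM of at least 1, namely PDGFRB, a growth factor receptor gene (3.06), and COL1A1, a collagen gene (2.45). COL3A1 came next with 0.02 to 0.81. DCN had 0.29 and 0.00 in vector 1 and vector 2, and FAP at most 0.08 in any library. The part of these marker lists in the keratin differences was not tested.

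Genes that anchor keratin filaments had medians nearer to those of all genes. Of 18 desmosome and linker genes 12 reached a mean FPKM of 1, of which 7 were lower in vector 2 and 9 in DKO 2, with median log2 ratios of -0.23 and -0.14. Over all genes of that level 50.8% and 47.5% were lower. JUP, which encodes plakoglobin, had an FPKM of 13.7 in vector 1, 3.80 in vector 2, 8.64 in DKO 1 and 4.44 in DKO 2. The desmosomal cadherin gene DSC2 had 2.36, 1.26, 1.9 and 0.76. These were the 2 genes of the list past 1.5-fold lower in both contrasts, as 2.44% of all genes were. PLEC, the most abundant linker gene (plectin), had 128.2, 130.6, 113.6 and 105.9. PNN, which encodes pinin, and DST, which encodes the linker dystonin, had mean FPKM of 41.6 and 39.2.

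**Figure D3:**
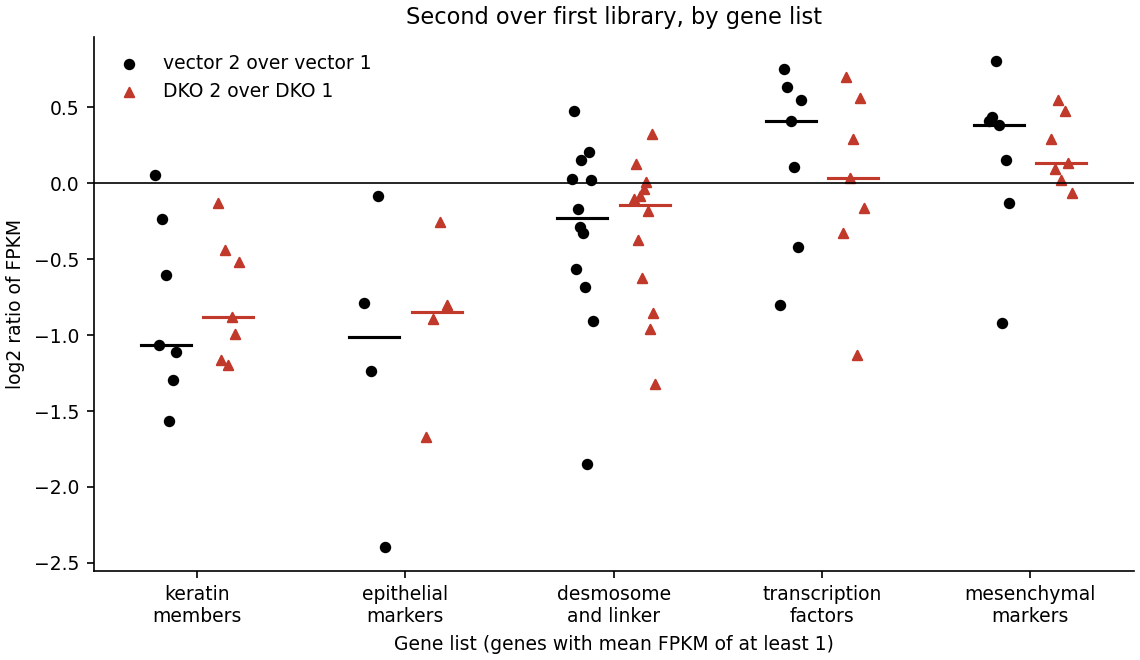
log2 ratio of FPKM for single genes at a mean FPKM of 1 or more, by gene list, vector 2 over vector 1 (circles) and DKO 2 over DKO 1 (triangles), with the median as a line. Medians are -1.07 and -0.88 for the keratins, -1.01 and -0.85 for epithelial markers, and 0.38 and 0.13 for mesenchymal markers.

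The balance of the types differed between the libraries as well. Summed over the members, type II keratins had 348.1 and 249.2 FPKM in the vector libraries, 295.8 in the MRCKα KO, 325.3 in the MRCKβ KO, and 306.6 and 196.2 in the DKO libraries. Type I keratins had 238.0, 213.5, 230.9, 246.8, 215.5 and 175.1. Among the members, type II exceeded type I in all 6 libraries. The excess was 1.46-fold and 1.17-fold in the vector pair and 1.42-fold and 1.12-fold in the DKO pair. In the MRCKα and MRCKβ knockouts it was 1.28-fold and 1.32-fold. Keratins outside the members are left out of these ratios. Their type I genes summed to between 19.3 and 27.7 FPKM, with 21.6 in DKO 2. Their type II genes summed to between 0.09 and 0.75. With them counted, the types would lie closer together in every library. In DKO 2 the excess would be all but gone, with 175.1 and 21.6 for type I against 196.2 and 0.48 for type II.

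KRT8 and KRT18, which pair with each other, stayed close to equal. KRT8 over KRT18 was 1.24 and 1.01 in the vector libraries, 1.02 in the MRCKα KO, 1.08 in the MRCKβ KO, and 1.12 and 0.90 in the DKO libraries. DKO 2 was the only library of the 6 with less KRT8 than KRT18. Of the type I hair keratins with a row, the highest, KRT34, was listed at 0.57 in vector 2, at 1 in MRCKα KO and at 0 in the other 4 libraries.

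**Figure D4:**
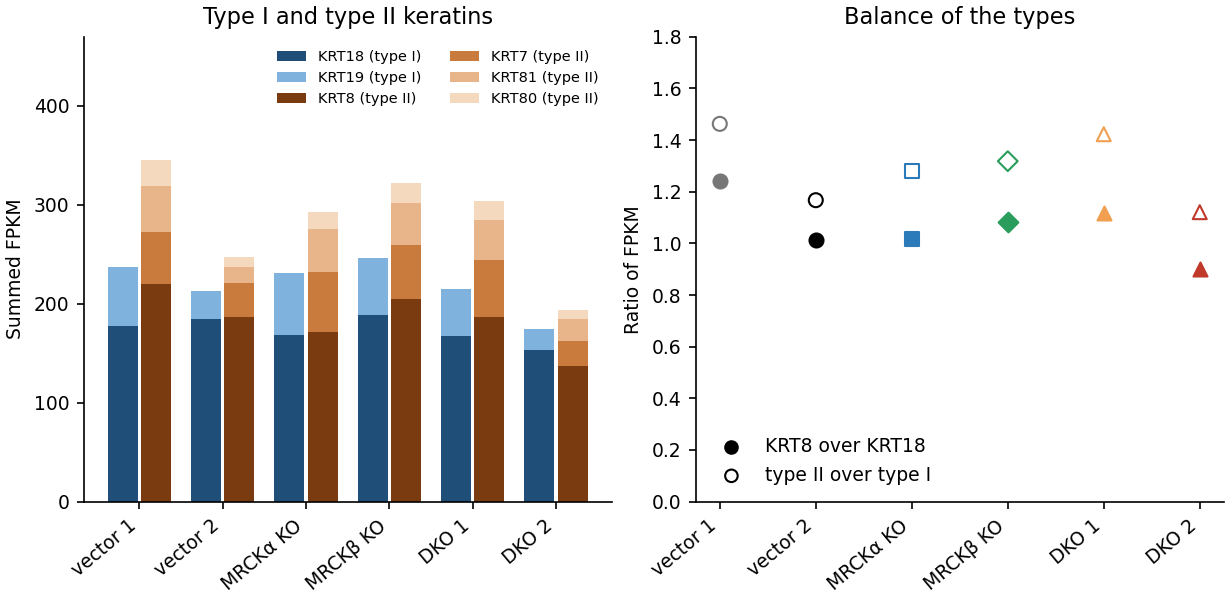
Left, summed FPKM of the type I keratins KRT18 and KRT19 and the type II keratins KRT8, KRT7, KRT81 and KRT80 in each library. Right, the ratio of KRT8 to KRT18 (filled) and of all type II to all type I members (open), where vector 2 and DKO 2 have the lowest open points, at 1.17 and 1.12.

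DKO was compared with vector to ask whether loss of both kinases changed the keratins. This is the only comparison with replicates on both sides. No keratin was called. Over 13123 genes, edgeR's quasi-likelihood test gave 0 genes (0%) with a Benjamini-Hochberg adjusted p under 0.05, and 313 (2.39%) were under 0.05 before adjustment, 179 (1.36%) higher and 134 (1.02%) lower in DKO. DESeq2 called 4 genes. Of the 9 members 7 passed the filter on low counts, and of the 6 of these that were tested 0 had an unadjusted p under 0.05, KRT81 being described without a test.

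KRT8 had a mean FPKM of 203.5 ± 23.4 (SD, n = 2) in vector and 162.2 ± 34.8 (SD, n = 2) in DKO. Its log2 fold change was -0.35 (standard error 0.18, adjusted p = 1 from edgeR). KRT18 had 180.8 ± 5.03 in vector and 160.0 ± 9.998 in DKO, a log2 difference of -0.20 (standard error 0.12, adjusted p = 1 from edgeR). In FPKM, both DKO libraries lay below both vector libraries for KRT8 and KRT18. The same held for 12.3% of all genes at a mean FPKM of 1 or more. For KRT8 it rested on an FPKM of 186.74 in DKO 1 against 187.02 in vector 2. On counts per library total, DKO 1 lay slightly above vector 2 for KRT8, while KRT18 kept its order. No member had both DKO libraries above both vector libraries, against 17.3% of all genes of that level.

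For the others the spread within the groups was larger than the difference between them. KRT7 had 43.4 ± 12.7 FPKM in vector and 41.2 ± 22.9 in DKO (SD, n = 2 each), and edgeR put its log2 change at -0.10 (standard error 0.40). KRT19 had 44.6 ± 22.3 and 34.8 ± 18.8 (-0.38, standard error 0.46). KRT80 had 18.1 ± 10.7 and 13.7 ± 6.42 (-0.41, standard error 0.47). Their adjusted p from edgeR was 1, as was that of KRT86 (0.15, standard error 0.47).

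KRT81 had 31.5 ± 22.05 FPKM in vector and 31.7 ± 13.3 in DKO, with an edgeR log2 estimate of -0.01 (standard error 0.51). The value depended on the library. It was 0.97 without vector 1 and -0.59 without vector 2, and -0.53 without DKO 1 and 0.37 without DKO 2. Leaving out vector 1 also turned KRT7 to 0.29, KRT19 to 0.25 and KRT80 to 0.37. Leaving out DKO 2 turned KRT7 to 0.38 and KRT19 to 0.09. Leaving out vector 2 turned KRT86 to -0.35 and leaving out DKO 1 turned it to -0.14. KRT8 ranged from -0.59 without DKO 1 to -0.14 without DKO 2, and KRT18 from -0.27 to -0.13 for the same libraries.

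**Figure D5:**
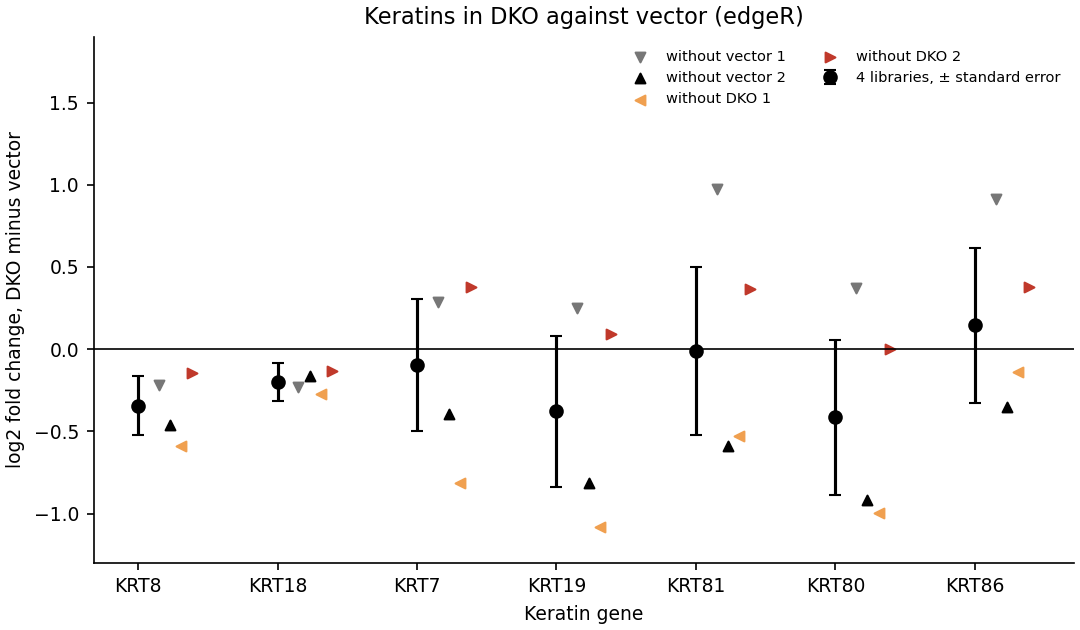
log2 fold change of 7 keratins, DKO minus vector, from edgeR with its standard error (circles), and the same with 1 library left out (triangles). The triangles of KRT8 and KRT18 lie below 0, whereas those of the other 5 genes lie on both sides.

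The single knockouts have 1 library each and were placed against the vector libraries without a test. In MRCKα KO, KRT7 and KRT19 lay above both vector libraries (33.1% of all genes at a mean FPKM of 1 or more did) and KRT8 and KRT18 below both (26.3%). In MRCKβ KO, KRT7 and KRT18 lay above both (30.3%) and 0 members below both (29.1%). KRT81 lay between the vector libraries in both knockouts, close to vector 1, at 0.92-fold of it in MRCKα KO and 0.90-fold in MRCKβ KO, and 2.71-fold and 2.66-fold above vector 2. KRT80 lay between them as well, as did KRT86.

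By the fold-change rule of the methods, a gene was dropped where its replicates were over 2-fold apart. KRT19, KRT80, KRT81 and KRT86 fell to this rule in vector, 4 of 8 against 18.4% of all genes above 0 in either vector library. KRT7 and KRT19 fell to it in DKO, 2 of 8 against 15.6%. These shares include genes near 0. At a mean FPKM of 1 or more, 2.52% were at least 2-fold lower and 1.62% higher in vector 2, and 1.63% and 0.684% in DKO 2. The vector contrast led to the choice of KRT81, so these counts are a description. Under the rule a ratio was given for KRT7, KRT8, KRT14 and KRT18 in the single knockouts and for KRT8, KRT14 and KRT18 in DKO. None of these passed 2-fold, against 4.42% and 3.53% of all genes in the MRCKα and MRCKβ knockouts and 1.78% in DKO. KRT7 came to 1.41-fold and 1.27-fold of the vector mean in MRCKα KO and MRCKβ KO. With vector 2 alone as the control, that filter no longer applies. KRT81 then passed in MRCKα KO at 2.71-fold and in MRCKβ KO at 2.66-fold, and KRT19 in MRCKα KO at 2.16-fold. KRT81 was chosen for its difference between the vector libraries, so this is a description. The share of all genes passing against a single vector library was not computed. With vector 1 alone 0 members passed.

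The rest of the keratin family was sparse. Of 45 other keratin genes 15 had a row, and 2 had a mean FPKM of at least 1, KRT10 and KRT15. KRT10, a type I keratin of the upper epidermis, had 19.95 and 23.93 FPKM in the vector libraries, 18.99 in the MRCKα KO, 16.9 in the MRCKβ KO, and 16.9 and 19.6 in the DKO libraries. It was thus highest in vector 2, where KRT81 was lowest. KRT15, a basal keratin, had between 0.88 and 1.96, on 17 to 39 counts. Of the 3 genes of this list that were tested, 0 had an unadjusted p under 0.05 in DKO, and KRT10 had a log2 difference of -0.29 (standard error 0.16, adjusted p = 1 from edgeR).

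In the context lists 0 genes passed the test in either direction, also at an unadjusted p under 0.05. These were 13 tested desmosome and linker genes (median log2 fold change -0.12), 7 other intermediate filaments (-0.13), 7 transcription factors of epithelial and hair programmes (0.22), 5 epithelial markers (0.04), 9 mesenchymal markers (-0.09) and 3 fibroblast markers (-0.78), against a median of 0.00 over all genes tested. LMNA and LMNB2, which encode nuclear lamins, were the most abundant intermediate filament genes after VIM, with mean FPKM of 184.9 and 61.8. Of the transcription factors KLF5, which acts in epithelial cells, had 36.9 FPKM in vector 1, 21.2 in vector 2, 35.1 in DKO 1 and 28.02 in DKO 2. TFAP2C ran the other way with 19.7, 33.1, 17.7 and 28.8, and KLF4 had 9.61, 14.9, 14.3 and 14.6. HOXC13, which is known for driving hair keratin genes, had no row.

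Likeness to KRT81 was measured over the 6 libraries as the root mean square difference of log2(FPKM + 0.1) after centring, among 11711 genes at a mean FPKM of 1 or more. The nearest genes were LOC100126447, an uncharacterised locus (0.12), LDHD, a mitochondrial lactate dehydrogenase (0.13), and SHROOM3, which binds actin at apical junctions (0.14). SHROOM3 had 10.5 and 4.35 FPKM in the vector libraries, 9.74 in the MRCKα KO, 11.6 in the MRCKβ KO, and 10.1 and 6.15 in the DKO libraries. Of the keratins KRT80 came at rank 64 (0.24), KRT19 at 113 (0.28), KRT86 at 121 (0.28) and KRT7 at 212 (0.32), while KRT8 and KRT18 came at ranks 2514 and 4928. Nearest to KRT8 were EHBP1L1, PPARG, a nuclear receptor of fat cell differentiation, and TGIF1, a homeobox repressor, at 0.04, 0.05 and 0.05, with KRT18 at rank 352 and KRT81 at rank 11136. The 6 libraries are shared by all these values, so the ranks are a description.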

How the data were processed

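RNA was sequenced for the authors by BGI as single-end reads of 50 bases. Per the labels, the submitters' processing notes name HISAT, Bowtie2, RSEM and the build GRCh38.p11, with no role or version. Expected counts, as deposited by the authors, estimate the reads of a gene and are not normalized. The deposited FPKM values are divided by transcript length and library total and rounded to 2 decimals.

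Expected counts of the vector and DKO libraries were rounded and tested with edgeR 4.0.16 (filterByExpr, TMM, glmQLFit and glmQLFTest, Benjamini-Hochberg). The step was tested on simulated data. Alternatives used DESeq2 1.42.0, limma 3.58.1 on log2 FPKM, other scalings and filters, a replicate block and each replicate left out. P-values measure the spread between transductions or guide sets. Ratios of 2 libraries use FPKM without a pseudocount, with exact binomial intervals of the counts. A count of 0 allows up to 3 counts.

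Positions and the compared transcripts are from GENCODE on GRCh38. The members and gene lists were chosen with earlier results of these data known. Named are all members, the targeted genes, other keratins with a mean FPKM of at least 1 (at most 8), the 3 most abundant genes of each list and any with an unadjusted p under 0.05, and the 3 genes most like KRT81 and KRT8. Chosen after their values were seen were CDH1, CLDN3, CRB3, ESRP1, RAB25, GRHL2, TWIST1, JUP, DSC2, FN1, DCN, FAP, KRT34 and HOXC13. One marker of the epithelial list was taken out of all its counts, sums and medians, and it and the compared sequences are not reported here.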

Additional observations from a re-analysis of the deposited data

How the results depend on the processing

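No tested keratin had an adjusted p under 0.05 in DKO under any alternative run. The number of genes called, 0 with edgeR, was 4 with DESeq2, 5 with the replicate number as a block, and 0 to 5 with 1 library left out. With the replicate block, tested keratin members with an unadjusted p under 0.05 from edgeR went from 0 to 3. These were KRT8, KRT19 and KRT80, all lower in DKO (lowest adjusted p = 0.647 from edgeR). Over all 13123 genes, those under 0.05 went from 313 to 796 with the block. The labels do not tie the numbers to a batch, and the deviations of same-numbered vector and DKO libraries had a correlation of 0.30 across genes. Of the other keratins 1 had an unadjusted p under 0.05 from edgeR without a filter on low counts, as had 359 of 16663 genes. With all 6 libraries in the fit 1 had, as had 332 of 13764 genes. With 1 library left out, the log2 fold change ranged from -0.81 to 0.38 for KRT7, from -1.08 to 0.25 for KRT19, from -0.999 to 0.37 for KRT80 and from -0.35 to 0.91 for KRT86, where the lone library is assumed to vary like the other group. With vector 1 left out, KRT81 passed the fold-change rule in both single knockouts and KRT19 in MRCKα KO, which did not occur with vector 2 left out. The share of all genes passing under these settings was not computed. Of 78 alternative log2 fold changes of the 6 tested members, 7 changed sign, all with a library left out. KRT81, which was not tested and lay near 0, changed sign in 6 of 13, of which 4 left out no library (0.01 with library size only, 0.10 with the replicate block, 0.14 and 0.13 with limma), and ranged from -0.59 to 0.97 with a library left out. The 2-fold count and the KRT81 ratio between the vector libraries were within 1.5 times or inside the counting interval under every alternative run. Depth limits KRT14, KRT86 and the other keratins apart from KRT10.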
